A study of Rattus norvegicus with 12 samples.

Results

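The maturation of small arteries in the spontaneously hypertensive rat (SHR) was examined at the level of miRNA, by setting arteries of mature rats (5 months) against arteries of young rats (6 weeks) of the same subline. Of the 12 arrays of the series, 6 held SHR arteries, 3 at 5 months and 3 at 6 weeks. The 3 sublines were SHR/NCrL, the stroke-prone SHR/SP and SHR/NHsd, and each gave 1 array at each age. SHR/NCrL and SHR/SP came from a commercial breeder in the Netherlands, whereas SHR/NHsd descended from a British colony and was bred at a university in Madrid. All rats were male, and no treatment is named for any group. The other 6 arrays held arteries of the normotensive strain WKY at the same ages, from the sublines WKY/NCrL, WKY/NHsd and WKY/NTac, and serve here only for comparison. Small mesenteric vessels, of the second and the third branching order, were used after removal of fat and blood. They still had their outer coat (adventitia) and their endothelium. Each array held a pool of vessels from 5 rats. The 3 values of a group are therefore 3 pools from 3 sublines. Their spread joins differences between sublines, pools and arrays, and does not measure the spread between single animals. An inbred subline is also a limited model, since rats of 1 subline share nearly all their alleles.

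miRNAs are short RNAs that guide a silencing complex to messenger RNAs, chiefly by pairing through the seed, bases 2 to 8 of the miRNA. Each hairpin precursor can give a miRNA from its 5′ arm (-5p) and from its 3′ arm (-3p), and miRNAs that lie close together in the genome are often cut from a shared transcript. In arteries, miRNAs of smooth muscle and endothelium are known regulators of the contractile state, of proliferation and of the extracellular matrix.

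Values are those of the deposited table of log2 expression, made from the brightness of the array spots by background correction and quantile normalization, in which an increase of 1 is a doubling of signal. The table held 719 rat miRNAs. The scanner software had marked 275 of them as detected on at least 1 of the 6 SHR arrays, and these were tested, with arrays paired by subline. Of these, 196 were detected on all 6 arrays. A miRNA was called changed where limma's two-sided p, after Benjamini-Hochberg adjustment over the 275, was below 0.05. For orientation, the median of all miRNA values on SHR arrays that did not detect the miRNA was 2.05.

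The sequences that the main results turn on are shown first, 5′ to 3′, from RefSeq (GRCr8), with the seed in capitals. Among miRNAs that rose with age, 3 members of the miR-29 family share 1 seed, miR-132-3p and miR-212-3p share another, and miR-34a-5p has the seed of the miR-34 family.
miR-29b-3p: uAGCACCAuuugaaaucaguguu
miR-29a-3p: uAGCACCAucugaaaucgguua
miR-29c-3p: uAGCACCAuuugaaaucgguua
miR-132-3p: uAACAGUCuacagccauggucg
miR-212-3p: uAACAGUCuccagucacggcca
miR-34a-5p: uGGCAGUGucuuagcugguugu
miR-30a-5p: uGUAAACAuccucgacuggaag
miR-30c-5p: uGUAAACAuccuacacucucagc

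Among miRNAs that fell with age, miR-322-5p has the seed that miR-15 and miR-16 share, and 3 miR-181 members share a seed. The remaining sequences are those of the other tested members of the miR-322 cluster and of 4 members of the Dlk1-Dio3 cluster that fell by more than 1 log2, and no further one has a seed in common with another shown.
miR-322-5p: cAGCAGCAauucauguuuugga
miR-15b-5p: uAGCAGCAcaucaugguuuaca
miR-16-5p: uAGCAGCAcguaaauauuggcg
miR-181c-5p: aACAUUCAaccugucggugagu
miR-181d-5p: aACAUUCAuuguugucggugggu
miR-181a-5p: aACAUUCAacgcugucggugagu
miR-322-3p: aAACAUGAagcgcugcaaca
miR-542-5p: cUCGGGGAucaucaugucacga
miR-542-3p: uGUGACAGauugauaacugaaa
miR-450a-5p: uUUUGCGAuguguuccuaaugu
miR-503-5p: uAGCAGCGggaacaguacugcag
miR-379-5p: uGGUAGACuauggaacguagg
miR-127-3p: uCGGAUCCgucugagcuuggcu
miR-411-3p: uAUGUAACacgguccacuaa
miR-299a-5p: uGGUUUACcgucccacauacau

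With age, miR-29, miR-132, miR-34a and many miRNAs of smaller change rose in SHR arteries. The tested miRNAs of the miR-322 cluster on chromosome X and most tested miRNAs of the imprinted Dlk1-Dio3 cluster fell. In all, 89 of the 275 tested miRNAs were called changed (32.4%), 45 higher at 5 months (16.4%) and 44 lower (16%). The median change was 0.65 on the log2 scale over the 45 that rose and −1.08 over the 44 that fell, against 0.05 over all tested. Changes of more than 1 log2 were found in 8 of the miRNAs that rose and in 23 of those that fell. Of the 44 that fell, 16 were detected on no array at 5 months, so their falls are lower bounds. Of those that rose, only miR-132-3p was detected on no array at 6 weeks. These passed the detection filter only through the age at which they were higher, so rises and falls are not a like comparison. The 3 values at 5 months and the 3 at 6 weeks did not overlap in 148 of the 275 (53.8%), and among the 89 called miRNAs only miR-196b-5p overlapped. All 89 moved the same way in the 3 sublines. Because a pool of tissue was measured, fewer cells of a type and less RNA per cell cannot be told apart in any of these changes.

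The calls were not evenly robust. Without the SHR/SP pair 46 miRNAs were called (17 higher, 29 lower) and without the SHR/NHsd pair 43 (13 higher, 30 lower), against 75 without SHR/NCrL. Of the 89, 40 were called whichever subline was left out, 12 of them higher and 28 lower. The 3 arrays at 5 months lay on slide 1 with SHR/NCrL and SHR/SP at 6 weeks, whereas SHR/NHsd at 6 weeks lay on slide 2, so slide and age cannot be told apart in SHR/NHsd. Of the 89, 57 were called both with the arrays of slide 1 alone and with the slide as a term, and 36 under scaling to 1 median, after centring and with the total gene signal. The fit of slide 1 alone had no pairing by subline, and its SHR/NHsd array at 5 months had no partner. A call lost there can therefore reflect the lost pairing or the missing array as well as the slide. The sizes depended on the processing. Without background correction 68 of the 89 changes were smaller by more than 1.5 times, and with the total gene signal 20 were smaller and 37 larger by that factor. Values of the total gene signal under a small positive floor were raised to that floor before the log2 step. Sizes that involve such values depend on the chosen floor and are not measured sizes.

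The miR-29 family showed the largest rise. miR-29 is known to lower the messenger RNAs of collagens, elastin and other matrix proteins. All 5 of its tested members rose, of 7 on the array, with a median change of 1.26, and none fell. miR-29b-3p read 12.84, 13.05 and 12.80 at 5 months in SHR/NCrL, SHR/SP and SHR/NHsd, an order kept below, against 11.00, 10.74 and 10.70 at 6 weeks. Every 5-month array thus lay well above every 6-week array, and the rise was 2.09 on the log2 scale (SE 0.22, n = 3 pairs, limma adjusted p = 0.000691), or 4.24-fold. miR-29a-3p read 11.98, 11.93 and 12.00 at 5 months, against 10.75, 10.43 and 10.65 at 6 weeks, a rise of 1.36 (SE 0.15, limma adjusted p = 0.000789). For miR-29c-3p the values were 11.39, 11.42 and 11.47 at 5 months, against 10.26, 10.25 and 10.05 at 6 weeks, and the rise was 1.24 (SE 0.19, limma adjusted p = 0.00341). The ages did not overlap in either, and all 3 miRNAs stayed past the threshold without each subline and under each scaling of the arrays that was tried.

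The opposite arms moved the same way. miR-29c-5p read 6.49, 6.45 and 6.56 at 5 months, against 5.34, 5.38 and 5.00 at 6 weeks, a rise of 1.26. miR-29a-5p read 3.06, 2.97 and 2.97 at 5 months, against 2.53, 2.28 and 2.42 at 6 weeks. Its rise of 0.59 (limma adjusted p = 0.0117) was no longer called without SHR/SP (adjusted p = 0.0723) or without SHR/NHsd (adjusted p = 0.0635). By the rn4 positions of the probes in the files, miR-29a and miR-29b-1 lie at chr4:58107775-58108211 and miR-29c and miR-29b-2 at chr13:110967536-110968122, and both loci held called miRNAs. miR-29a-3p and miR-29c-3p differ at 1 of 22 bases, and their probes may not tell them apart fully.

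**Figure D1:**
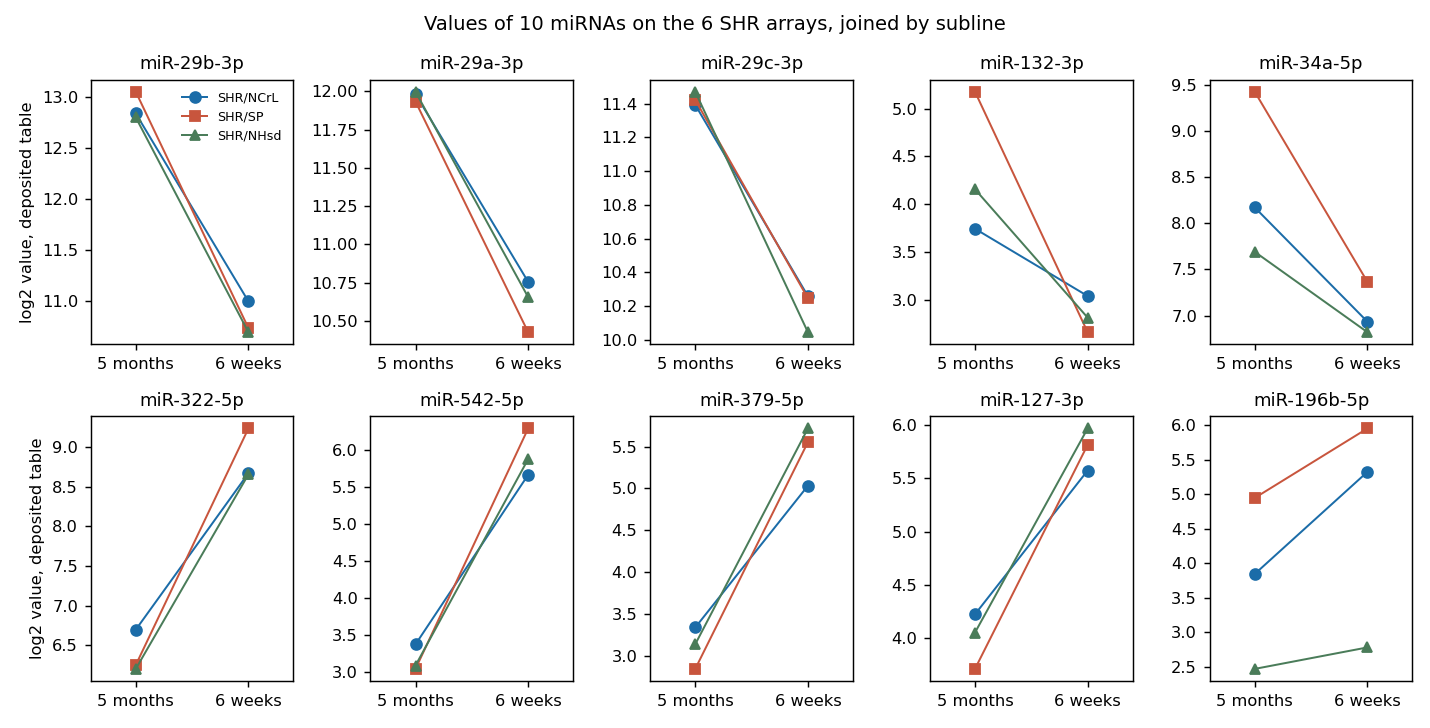
Log2 values from the deposited table (y axis, a scale for each panel) of 10 miRNAs at 5 months and 6 weeks (x axis), with a line for each SHR subline. The 3 lines run the same way in every panel, and only in the panel of miR-196b-5p do the values of the ages overlap.

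miR-132-3p was the second largest rise and the most uneven. miR-132 and miR-212 are cut from a shared transcript that is induced by the transcription factor CREB. miR-132-3p read 3.74, 5.18 and 4.16 at 5 months, against 3.04, 2.66 and 2.81 at 6 weeks, and was detected on all 3 arrays at 5 months but on none at 6 weeks. In the deposited values it was at least 2.87-fold higher at 5 months (log2 change 1.52, SE 0.31, limma adjusted p = 0.0100). The size depended on the processing, with a log2 change of 0.28 without background correction and 7.38 with the total gene signal of the scanner. The change was 0.70 in SHR/NCrL, 2.52 in SHR/SP and 1.34 in SHR/NHsd, the widest range among called miRNAs. In the unpaired fit of slide 1 alone miR-132-3p was not called (adjusted p = 0.0560). Its neighbour miR-212-3p, whose probes lie with those of miR-132 at chr10:62480471-62480806 (rn4), read 4.40, 4.53 and 4.11 at 5 months against 3.73, 3.39 and 3.49 at 6 weeks. Again the ages were apart, with a rise of 0.81 (SE 0.19, limma adjusted p = 0.0178), and the call was lost without SHR/SP (0.113) and without SHR/NHsd (0.0627).

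miR-34a-5p, a direct target of p53 that rises in aging vessels of mice, read 8.17, 9.42 and 7.69 at 5 months, against 6.94, 7.37 and 6.82 at 6 weeks. SHR/SP was highest at both ages, and the rise was 1.39 (SE 0.23, limma adjusted p = 0.00455), or 2.62-fold. It was called without each subline, but not in the unpaired fit of slide 1 alone (adjusted p = 0.120). The other 3 tested miRNAs of its seed, miR-34b-5p, miR-34c-5p and miR-449a-5p, were not called. Over the 4 the changes ranged between −0.07 and 1.39.

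Of miR-221 and miR-222, which promote proliferation of vascular smooth muscle, only miR-222-3p was called among 3 tested. It read 4.92, 5.51 and 4.82 at 5 months, against 4.22, 3.76 and 4.11 at 6 weeks, a rise of 1.06 (SE 0.25, limma adjusted p = 0.0178). The call rested on SHR/SP, since without it the adjusted p was 0.0841. miR-221-3p, beside it on chromosome X, had a change of 0.25 (adjusted p = 0.297) and overlapping values.

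The miR-30 family, which is abundant in many tissues and whose members share a seed on the 5p arm, had 5 of 11 tested members higher and none lower, with a median change of 0.45. miR-30c-2-3p rose by 0.98, with 5.42, 5.63 and 5.66 at 5 months and 4.64, 4.66 and 4.48 at 6 weeks (SE 0.17, limma adjusted p = 0.00601). miR-30a-3p read 8.93, 8.94 and 8.88 at 5 months, against 8.16, 8.29 and 8.07 at 6 weeks, a rise of 0.74 (SE 0.12, limma adjusted p = 0.00376). Both kept their calls without each subline. The other 3 did not: miR-30a-5p (change 0.59) was lost without SHR/SP (adjusted p = 0.0561) and without SHR/NHsd (0.107), miR-30c-5p (0.45) without SHR/NCrL (0.109) and SHR/NHsd (0.20), and miR-30b-3p (0.75) without any 1 of the 3 (0.0577, 0.0801 and 0.173).

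Several further miRNAs rose by a similar amount in each subline. miR-7a-5p, best known from neurons and pancreatic islets, read 5.23, 5.14 and 5.06 at 5 months, against 4.29, 4.18 and 4.15 at 6 weeks, and its changes in the 3 sublines lay between 0.91 and 0.96 (limma adjusted p = 0.00233). miR-185-5p, which lies within the gene Tango2, read 6.76, 6.80 and 6.70 at 5 months, against 5.91, 5.85 and 5.65 at 6 weeks (change 0.95, SE 0.16, limma adjusted p = 0.00501). miR-33-5p, which lies within Srebf2, a master gene of cholesterol synthesis, had 5.89, 5.98 and 5.66 at 5 months and 5.30, 5.10 and 4.97 at 6 weeks (change 0.72, limma adjusted p = 0.00564). None of these groups of 3 overlapped, and each of these 3 miRNAs was called without each subline.

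The next set completes the 15 largest rises. miR-598-3p (change 0.99, limma adjusted p = 0.0130) was not called without SHR/NCrL (0.0582), SHR/SP (0.0555) or SHR/NHsd (0.0704), although its change was then 0.93, 1.08 and 0.97. miR-192-5p and miR-194-5p, which share transcripts and are abundant in epithelia, rose by 0.96 and 0.90. The miR-192-5p values were 6.01, 6.03 and 5.95 at 5 months, against 5.11, 5.18 and 4.84 at 6 weeks, and those of miR-194-5p were 4.70, 4.47 and 4.66 at 5 months, against 3.71, 3.97 and 3.46 at 6 weeks. miR-192-5p was lost without SHR/SP (0.0555) and SHR/NHsd (0.0736), and miR-194-5p without SHR/NCrL (0.0713) and SHR/NHsd (0.115). Of 15 epithelial miRNAs on the array 3 were tested, and their summed level was 6.53 to 6.57 (log2) at 5 months and 5.50 to 5.86 at 6 weeks. The third, miR-215, had a change of −0.24 (adjusted p = 0.746) and was detected on 1 array. The part of epithelial or other cells in these rises was not tested.

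The smooth muscle miRNAs gave a split result. miR-143-3p, a marker of differentiated smooth muscle, read 15.32, 15.23 and 15.29 at 5 months, against 15.30, 15.18 and 14.97 at 6 weeks, and was not called (change 0.13, limma adjusted p = 0.433). miR-145-5p also missed the threshold (change 0.46, adjusted p = 0.0795). Only the 3p arm of miR-145 was called of 4 tested, with 4.70, 4.51 and 4.56 at 5 months against 3.88, 3.71 and 3.01 at 6 weeks, a rise of 1.06 (SE 0.26, limma adjusted p = 0.0190). Without SHR/SP its adjusted p was 0.0628 and without SHR/NHsd 0.123. Both defining markers, miR-143-3p and miR-145-5p, were detected on all 6 arrays.

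Turning to the falls, the miR-322 cluster fell as a whole. miR-322, the rat counterpart of human miR-424, and miR-503 are known to restrain cyclins and other cell cycle genes in several mammalian cells. The 10 miRNAs of the cluster on the array have probes within 5273 bp at chrX:139994968-140000240 (rn4). All 6 tested members fell, with a median change of −2.02, and in each the fall was smallest in SHR/NCrL. miR-542-5p had the largest fall of all tested miRNAs, with 3.37, 3.04 and 3.08 at 5 months and 5.67, 6.30 and 5.88 at 6 weeks. It was 6.89-fold lower (log2 change −2.79, SE 0.26, limma adjusted p = 0.000551). miR-322-5p read 6.69, 6.25 and 6.20 at 5 months, against 8.67, 9.24 and 8.66 at 6 weeks, and was 5.56-fold lower (−2.47, SE 0.23, limma adjusted p = 0.000551). In neither did the ages come near each other.

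The other members also fell. miR-542-3p read 3.67, 3.28 and 3.30 at 5 months, against 5.57, 6.06 and 5.74 at 6 weeks (change −2.37). miR-450a-5p read 3.54, 3.15 and 3.32 at 5 months, against 4.74, 5.33 and 4.95 at 6 weeks (−1.67). miR-322-3p, the other arm of the miR-322 precursor, read 2.89, 2.71 and 2.92 at 5 months, against 4.09, 4.46 and 4.17 at 6 weeks (−1.40). In all 3 the ages were fully apart. miR-503-5p was detected on every array at 6 weeks and on none at 5 months, and was at least 2.30-fold lower (limma adjusted p = 0.00146). All 6 stayed called without each subline. With the total gene signal of the scanner in place of the deposited values, miR-542-5p (adjusted p = 0.0878) and miR-322-3p (0.160) were not called, and the median change of the cluster was −3.38. Without background correction that median was −0.67, with all 6 called.

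Other miRNAs of the miR-15 and miR-16 seed fell much less than miR-322-5p. miR-15b-5p, which lies with miR-16 inside Smc4, read 9.43, 9.49 and 9.42 at 5 months, against 9.88, 9.92 and 9.99 at 6 weeks (change −0.48, limma adjusted p = 0.0135). Without SHR/SP (0.0555) and SHR/NHsd (0.0962) it was not called, and its change was −0.20 (adjusted p = 0.595) with arrays scaled to 1 median and 0.050 with arrays scaled to the spike-in controls. miR-16-5p (−0.34, limma adjusted p = 0.0426) was lost without each subline (0.0694, 0.187 and 0.174 without SHR/NCrL, SHR/SP and SHR/NHsd), and its sign turned under scaling to 1 median (0.18) and to the spike-ins (0.42). Under these scalings the median change of all tested miRNAs was itself 0.18 and 0.42. Thus miR-16-5p lay at that median, and miR-15b-5p below it. miR-195-5p and miR-497-5p, with the same seed, had changes of −0.11 and −0.30 and were not called. All 5 tested miRNAs of this seed therefore had a fitted change below 0, over a range of −2.47 to −0.11.

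The Dlk1-Dio3 cluster, the largest of the lists, held more of the falls than any other list. It is a large imprinted cluster of the maternal chromosome in placental mammals, whose miRNAs are abundant in embryonic and early postnatal tissue. Of 94 members on the array 33 were tested, 23 fell and none rose, with a median change of −0.79, and 27 were lower in all 3 sublines. Over all 275 tested miRNAs 44 fell (16%), and 79 were lower in all 3 sublines. By their rn4 probes 91 of the 94 lie at chr6:134141380-134429970. In 13 of the 23 no array at 5 months detected the miRNA, so those falls are lower bounds. Of the 23, 9 were detected on all 6 arrays. Members that passed the detection filter only through their values at 6 weeks had little room to be higher at 5 months, so the count is a description of the cluster and no test of it. The median change of the 33 was −0.11 without background correction and −3.74 with the total gene signal of the scanner, against −0.79 with the deposited values.

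miR-379-5p had the largest fall in the cluster, with 3.34, 2.85 and 3.14 at 5 months and 5.03, 5.55 and 5.72 at 6 weeks. It was 5.01-fold lower (log2 change −2.32, SE 0.24, limma adjusted p = 0.000691), although with the total gene signal it was not called (adjusted p = 0.131). miR-136-5p read 5.97, 5.39 and 5.56 at 5 months, against 7.15, 7.55 and 7.70 at 6 weeks (−1.83, SE 0.22, limma adjusted p = 0.000982). For miR-127-3p the values were 4.22, 3.71 and 4.05 at 5 months, against 5.57, 5.81 and 5.97 at 6 weeks (−1.79, SE 0.16, limma adjusted p = 0.000551). In these 3 the highest array at 5 months lay more than 1 log2 below the lowest array at 6 weeks. miR-127, miR-136, miR-431 and miR-434 lie within Rtl1, a retrotransposon-derived gene of the paternal chromosome, and run antisense to it in mouse.

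miR-299a-5p had the smallest adjusted p of all tested miRNAs, 0.000103 by limma, although it passed the detection filter only through its values at 6 weeks. It read 2.60, 2.64 and 2.88 at 5 months, where no array detected it, against 4.27, 4.50 and 4.65 at 6 weeks, and was at least 3.40-fold lower. Its changes in the sublines differed little, between −1.86 and −1.67. miR-411-3p read 3.67, 3.49 and 3.72 at 5 months, against 5.08, 5.44 and 5.66 at 6 weeks (−1.77, SE 0.15, limma adjusted p = 0.000551). miR-434-3p (−1.54), miR-329-3p (−1.41) and miR-136-3p (at least 2.60-fold lower) also had fully separate ages. All of these stayed called without each subline.

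miR-376a-3p was less even, with 4.03, 3.29 and 3.71 at 5 months and 4.45, 4.90 and 5.12 at 6 weeks. Its fall was 0.41 in SHR/NCrL, 1.61 in SHR/SP and 1.41 in SHR/NHsd on the log2 scale, and the call (limma adjusted p = 0.0100) was lost without SHR/SP (0.0678) and without SHR/NHsd (0.0688). The fall was smallest in SHR/NCrL in 21 of the 23 called members. Along the chromosome, tested members lay in a first group at about 35 to 69 kb and a second at about 247 to 284 kb from the first probe of the cluster, and called members occurred in both.

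**Figure D2:**
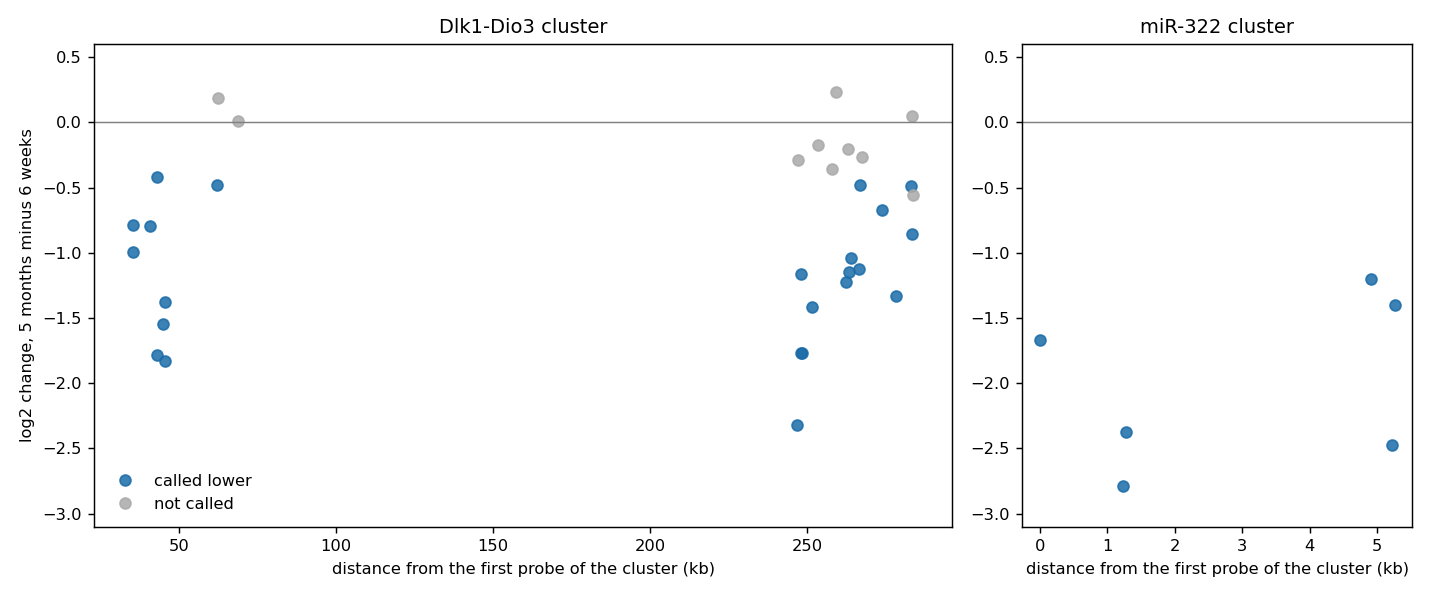
Log2 change at 5 months minus 6 weeks (y axis) of the tested miRNAs of the Dlk1-Dio3 cluster (left) and the miR-322 cluster (right), against the distance of the rn4 probe from the first probe of the cluster in kb (x axis), with called miRNAs in blue. All 6 points of the miR-322 cluster and 29 of 33 of the Dlk1-Dio3 cluster lie below 0.

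Together the Dlk1-Dio3 and miR-322 lists held 29 of the 44 miRNAs that fell. Of the remainder, miR-181c-5p had a large fall, with 4.44, 4.17 and 4.35 at 5 months and 5.51, 5.91 and 5.71 at 6 weeks (−1.39, SE 0.18, limma adjusted p = 0.00131). The miR-181 family is known from the development of lymphocytes. miR-181d-5p fell by 0.75 (adjusted p = 0.00413). miR-181a-5p, a far smaller change, fell by 0.43 (limma adjusted p = 0.0363), and was lost without SHR/NCrL (0.0791), SHR/SP (0.185) and SHR/NHsd (0.0856). Its change was −0.20 (adjusted p = 0.519) under scaling to 1 median and 0.046 under the spike-in scaling. The median change of all tested miRNAs was then 0.18 and 0.42. miR-335, which lies in the imprinted gene Mest in human and mouse, was detected only at 6 weeks and was at least 2.53-fold lower (adjusted p = 0.0119). Its call was lost without SHR/SP (0.0822) and SHR/NHsd (0.0704), and its fall was smallest in SHR/NCrL (0.65 on the log2 scale). miR-455-3p, from the collagen gene Col27a1, read 5.10, 4.87 and 4.95 at 5 months, against 6.08, 5.95 and 6.64 at 6 weeks (−1.25, limma adjusted p = 0.00186).

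The endothelial marker miR-126a-3p, encoded within Egfl7, read 10.79, 10.51 and 10.76 at 5 months, against 11.13, 11.10 and 11.50 at 6 weeks. The ages did not overlap, with a change of −0.55 (SE 0.14, limma adjusted p = 0.0216). Its other arm, miR-126a-5p, had a change of 0.02 (adjusted p = 0.914) and overlapping values. The call of miR-126a-3p was lost without SHR/SP (0.101) and without SHR/NHsd (0.140), with the slide as a term (0.0545), after centring (0.0528) and with the total gene signal (0.0701). With arrays scaled to 1 median its change was −0.13 (adjusted p = 0.702), and with arrays scaled to the spike-in controls 0.11. miR-199a-3p, from an antisense transcript of Dnm3 in mesenchymal cells, also read lower at 5 months (11.71, 11.97 and 11.61) than at 6 weeks (12.31, 12.31 and 12.32). Its change of −0.55 (limma adjusted p = 0.0117) was lost without SHR/NCrL (0.0513) and SHR/NHsd (0.0856), after centring (0.0528) and with the total gene signal (0.0865). With arrays scaled to 1 median it shrank to −0.022 (adjusted p = 0.965), and with the spike-in scaling it turned to 0.22. The median change of all tested miRNAs was 0.18 and 0.42 under these scalings, and miR-126a-3p and miR-199a-3p lay below it.

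miR-196b-5p, encoded among the Hox genes, had widely different levels in the 3 sublines. It read 3.84, 4.95 and 2.47 at 5 months, against 5.33, 5.96 and 2.78 at 6 weeks, so that SHR/NHsd was near the undetected level at both ages. Within each subline the value was lower at 5 months, by 1.48, 1.01 and 0.31 on the log2 scale. miR-196b-5p differs from miR-196a-5p and from miR-196c-5p at 1 of 22 bases, and their probes may not tell them apart fully. The change of −0.93 (limma adjusted p = 0.0150) was called only with arrays paired by subline. Without that replicate block the adjusted p was 0.476, with pairing by the label number 0.0739, without SHR/NCrL 0.0583 and without SHR/SP 0.0864. On slide 1 alone, also without pairing, it was 0.107.

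Over the 89 called miRNAs the 3 sublines moved by unequal amounts. The change was smallest in SHR/NCrL in 66, in SHR/SP in 16 and in SHR/NHsd in 7, and the median absolute change was 0.61, 0.82 and 0.85 in these sublines. Over all tested miRNAs, the called ones included, 24 moved by more than 1 log2 in SHR/NCrL, against 40 in SHR/SP and 48 in SHR/NHsd. With 1 pair of arrays in each subline, subline, pool and array cannot be told apart, and no test was made.

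**Figure D3:**
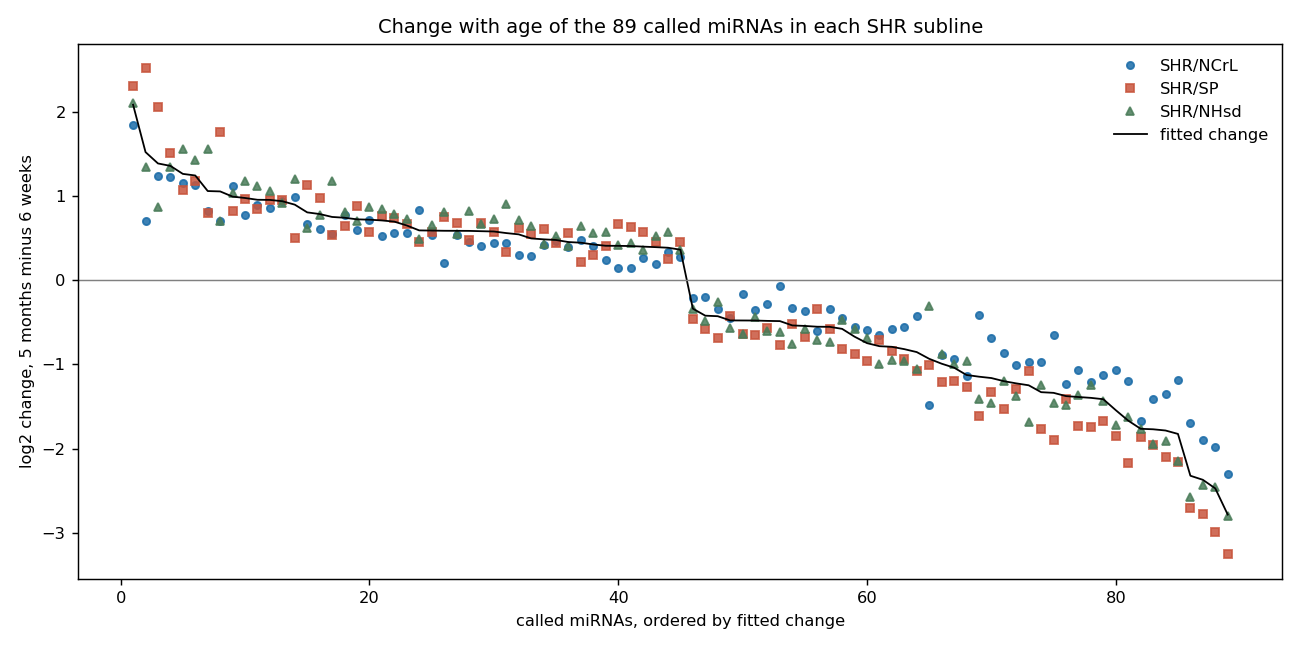
Log2 change at 5 months minus 6 weeks (y axis) in each SHR subline (symbols) for the 89 called miRNAs, ordered by the fitted change (x axis, black line). SHR/NCrL lies closest to 0 in 66 of the 89.

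Seeds and arms were compared across the tested miRNAs. Of the 275, 244 matched a mature sequence in RefSeq, and of the 89 called, 79 did, with 70 different seeds. Of 29 seeds with at least 2 tested miRNAs, 6 had at least 2 called, 15 miRNAs in all. In each of the 6 all called miRNAs moved the same way. Their uncalled members had the same sign, except miR-181b-5p with a change of 0.0006. These were the seeds AGCACCA of miR-29, GUAAACA of miR-30, AACAGUC of miR-132 and miR-212, ACAGUAC of miR-101a-3p and miR-101b-3p (changes 0.71 and 0.59), AGCAGCA of miR-322-5p and ACAUUCA of miR-181. Some of these are near copies, since miR-101a-3p and miR-101b-3p differ at 1 of 21 bases, and their signals may not be fully told apart. miR-101a-3p was lost without SHR/NCrL (0.0513), SHR/SP (0.113) and SHR/NHsd (0.138), and miR-101b-3p without SHR/NHsd (0.0627).

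In 53 precursors both arms were tested, and 40 pairs of arms had the same sign. Both arms were called in 10 precursors, 3 with both higher (miR-29a, miR-29c and miR-30a) and 7 with both lower (miR-127, miR-136, miR-322, miR-337, miR-411, miR-455 and miR-542). None had its arms called in opposite directions. In 19 precursors 1 arm was called, and in 14 of these the other arm had the same sign.

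Several families did not move as groups. None of the 12 tested let-7 miRNAs was called (median change −0.04), nor any of the 11 tested miRNAs of the miR-17 to miR-92 clusters (median −0.27). Of marker lists for other cells, none of the 3 tested miRNAs of red blood cells was called, with a median change of −0.74 and a summed level of 7.90 to 8.98 at 5 months and 8.62 to 9.34 at 6 weeks. None of 5 for leukocytes was called (median 0.22), with 8.64 to 9.29 at 5 months and 8.67 to 9.30 at 6 weeks. None of 5 for striated muscle was called either (median 0.25), whereas of 5 for neurons 1 fell. No pancreas or liver marker was detected on any SHR array. miR-126a and miR-143, the defining markers of endothelium and smooth muscle, were present throughout.

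The WKY arteries, measured on other arrays, moved in the same direction for most of these miRNAs. In WKY 56 of the same 275 miRNAs were called with age. These 275 were chosen by detection on SHR arrays, so miRNAs detected only in WKY were left out. In both strains 46 miRNAs were called the same way, which is 51.7% of the SHR calls and 82.1% of the WKY calls. Of the 89 SHR calls 86 had the same sign in WKY, and over all 275 the sign was shared by 220. The changes in the strains had a Pearson r of 0.85 over the 275 miRNAs, which are not independent replicates. The absolute change was larger in SHR than in WKY for 43 of the 45 miRNAs that rose in SHR and 38 of the 44 that fell. These miRNAs were chosen by their SHR values, so that excess is a description and no test.

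The difference between the strains was tested directly, and no miRNA passed (0 of 275 by limma, 0%), while 27 had an unadjusted p below 0.05. Without background correction 1 passed, with a normal-exponential background 1, and with the table centred on its median 3. Calls after centring followed the size of the change and took little account of its spread between sublines. For miR-29b-3p the change was 2.09 in SHR and 2.04 in WKY, a difference of 0.04 (SE 0.31). For miR-322-5p it was −2.47 in SHR and −1.57 in WKY, with a difference of −0.90 (SE 0.33, limma adjusted p = 0.428). miR-132-3p changed by 1.52 in SHR and 0.37 in WKY (difference 1.15, SE 0.43, limma adjusted p = 0.428). With these standard errors, differences of this size were not detectable after adjustment, which does not show the strains to be alike.

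The smallest p of that test belonged to miR-146a-5p, which is induced by NF-κB. It read 7.83, 7.75 and 8.03 at 5 months in SHR, against 8.11, 7.91 and 8.50 at 6 weeks, a change of −0.30 that missed the threshold (limma adjusted p = 0.0648). In WKY the change was 0.47 (adjusted p = 0.0229), and the strains differed by −0.77 (SE 0.15, unadjusted p = 0.00135, limma adjusted p = 0.371). The next 4 had an adjusted p of 0.405 each. They were miR-34b-5p (−0.03 in SHR, −0.78 in WKY), miR-140-3p (0.41 in SHR, −0.24 in WKY), miR-140-5p (0.17 in SHR, −0.39 in WKY) and miR-196b-5p (−0.93 in SHR, 0.10 in WKY). The 2 arms of miR-140, which is encoded within Wwp2 and known from cartilage, thus had differences of like sign and size. miR-140-3p itself was called in SHR (limma adjusted p = 0.0426), but not without SHR/SP (0.194) or SHR/NHsd (0.186).

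**Figure D4:**
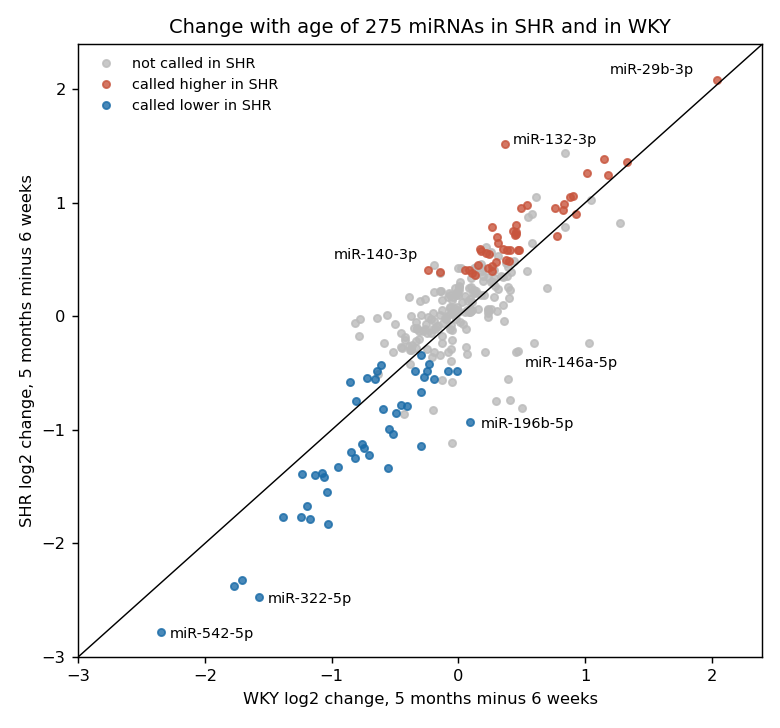
Log2 change at 5 months minus 6 weeks in SHR (y axis) against that in WKY (x axis) for the 275 tested miRNAs, with the diagonal of equal change. miR-29b-3p lies on the diagonal, miR-132-3p and miR-140-3p above it, and miR-322-5p and miR-146a-5p below it.

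Quantile normalization gives every array the same distribution of values, so a change in the total amount of miRNA would not be seen. The summed raw miRNA signal of the scanner was 408018, 584805 and 478416 units at 5 months, against 301149, 302908 and 257316 at 6 weeks, higher at 5 months in each subline. Spots of 4 controls that the scanner files mark as spike-ins had a mean log2 signal of 12.05, 11.75 and 11.87 at 5 months, against 11.66, 12.02 and 12.08 at 6 weeks, with overlap. The step at which each was added and its amount are not given in the sources used here. Scaled to these controls, the median change of all tested miRNAs moved to 0.42, relative to which all changes under that scaling are to be read, and 20 miRNAs were called, 6 higher and 14 lower. The median SE then was 0.56, against 0.14 with the deposited values. miR-29a-3p, miR-29b-3p, miR-29c-3p, miR-322-5p, miR-542-3p, miR-450a-5p, miR-503-5p, miR-127-3p, miR-136-3p, miR-299a-5p, miR-411-3p and miR-411-5p were the 12 that were called under this scaling, all other scalings, each subline left out and both treatments of the slide.

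**Figure D5:**
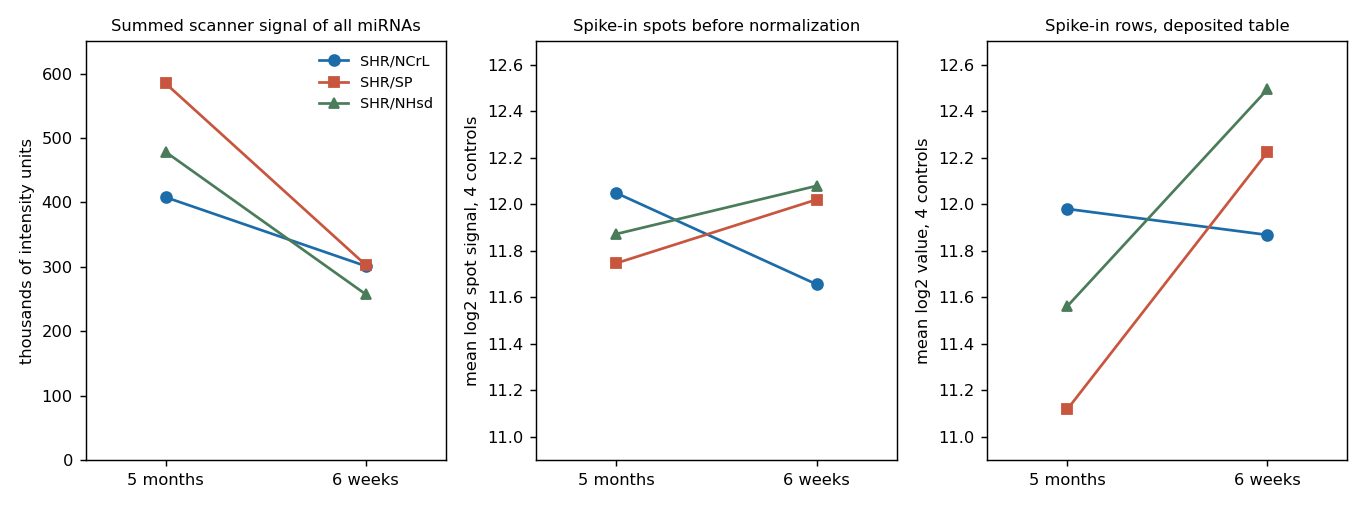
Summed scanner signal of all miRNAs (left, y axis in kilounits of intensity), mean log2 signal of the spots of 4 spike-in controls before normalization (middle) and mean log2 value of the same controls in the deposited table (right), at 5 months and 6 weeks, with a line for each SHR subline. The summed signal is higher at 5 months in all 3 sublines, while the spike-in spots overlap between ages.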

How the data were processed

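Spot intensity was read by the authors from single-colour Agilent arrays with Feature Extraction, per the file headers. From it the authors computed the deposited log2 table by a modified robust multi-array average, in which all 12 arrays were background-corrected and quantile-normalized together and summarized per miRNA. Its 719 miRNA rows were used and 22 control rows left out. Each array had 15095 spots, 23.3% to 25.8% of miRNA spots on the SHR arrays were above background, none was saturated, and 222 to 251 miRNAs were detected by the scanner software. The number of arrays limits the precision.

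Tests used limma 3.58.1 in R 4.3.3, with all 12 arrays, subline as a block and an age effect for each strain, which left 4 residual degrees of freedom. The label numbers do not follow the sublines in SHR. Deviations of same-subline arrays from their group means correlated at r = −0.11 (SHR/NCrL), 0.21 (SHR/SP) and 0.37 (SHR/NHsd), so the pairing rests on the labels alone. For a miRNA detected on no array of a group, "at least" was computed against the higher of its own value and the lowest detected signal of the array, 1.91 to 2.12. Members, lists and tests were chosen with earlier results of these data known. Named miRNAs were members of the lists, the 15 largest rises and falls moving alike in all sublines, the 3 calls of widest range between sublines and the 5 smallest p-values of the strain difference; any other named one was chosen after its values were seen. Alternatives changed the background correction, scaling, filter, block, slide, moderation and arrays used. Scaling to the spike-ins was added after the data were seen. The average computed anew from the spots had an r of 0.997 with the deposited values. Sequences and host genes are from RefSeq (GRCr8) and positions from the rn4 probe annotation of the files.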

Additional observations from a re-analysis of the deposited data

Results flagged for a closer look

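Among the called miRNAs and those named by rule, 2 had every SHR subline moving one way with age and every WKY subline the other way. The remaining tested miRNAs were left out of this count. The change of miR-140-3p was 0.15 to 0.63 (log2) in the SHR sublines and −0.35 to −0.14 in the WKY sublines, a difference of 0.64 (limma adjusted p = 0.405). The change of miR-146a-5p was −0.48 to −0.15 in the SHR sublines and 0.41 to 0.53 in the WKY sublines, a difference of −0.77 (limma adjusted p = 0.371). Neither difference passed the threshold after adjustment over the 275 miRNAs.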

How the results depend on the processing

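The 6 tested members of the miR-322 cluster were called lower under every setting tried except the total gene signal, with which 4 were. With the slide as a term 27 miRNAs were called higher. With the table centred on its median 29 were called higher (3 of the miR-30 family), with the total gene signal 23. The difference between strains was called in 3 miRNAs after centring, in 1 without background correction and in 1 with a normal-exponential background. After centring the median SE of a change was 0.25, against 0.14 in the main fit. The limma adjusted p then followed the size of the change, so calls after centring amounted to a cutoff on size. Scaling to the spike-ins left 20 calls, 6 higher and 14 lower, with 3 of miR-29, 0 of miR-30 and 7 of Dlk1-Dio3. It turned the sign of miR-126a-3p (0.11), miR-10b-5p (0.021), miR-15b-5p (0.050), miR-16-5p (0.42), miR-181a-5p (0.046) and miR-199a-3p (0.22). One-median scaling turned miR-16-5p (0.18), and the total gene signal turned miR-290 (−0.080). The median of all tested was 0.18 with 1 median, 0.42 with the spike-ins, −0.01 centred and −0.11 with the total gene signal. These turned signs are to be read against that median. Leaving out each array, which also leaves its partner without information, gave 43 to 75 calls, 13 to 33 higher and 29 to 42 lower, with 2 to 3 of the miR-30 family and 18 to 25 of Dlk1-Dio3. Without the replicate block 98 miRNAs were called (87 of the 89), and with the pairing by label number 94, for which the r of deviations was 0.31, 0.15 and 0.37. The median change of the Dlk1-Dio3 list was −0.11 without background correction and −3.74 with the total gene signal, and that of the miR-322 list −0.67 and −3.38. Low values of the total gene signal were raised to a small positive floor, on which sizes that involve them depend. The part of that floor and other causes was not tested. With 3 pairs and a median SE of 0.14, small changes were not detectable.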
